A study of Mus musculus with 18 samples.

Results

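Interleukin-1 alpha and beta, their antagonists and receptors, interleukin-18 and the inflammasome were followed in mouse dendritic cells carrying a mutant BRAF kinase. The inflammasome matures interleukin-1 beta and interleukin-18. The members were 10 genes, taken by symbol from the probe sets of the deposited array table, and 9 of them had a probe set with that symbol alone, of 19752 genes with such a probe set. Il1a, Il1b, Il1rn, Il1r2, Il1rap, Il18, Il18bp, Casp1 and Nlrp3 each had 1 probe set, and all 9 passed the filter on dim signals. Il1r1, the signalling receptor chain, had none under its own symbol in the annotation used and was not analysed here.

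The BRAF arrays came from mice with the genotype BRAFV600E(CA-flox) / CD11c-Cre(positive), and the WT arrays from littermates with BRAFV600E(CA-flox) / CD11c-Cre(neg), so every group carried the floxed allele. The Cre is driven by CD11c, which dendritic cells share with some macrophages, and no mouse was treated. The sorted cells were of 4 kinds: BMDC, grown from bone marrow of mice aged 5 weeks, untreated and sorted as live CD11c+CD11b+ cells (3 BRAF and 3 WT arrays), and, from mice aged 14 weeks, CD11b+ cells of liver, CD11b+ cells of lung and CD103+ cells of lung (2 BRAF and 2 WT arrays each). The labels number the replicates without saying that they came from separate mice, so the p-values measure the spread between these arrays, which may be technical.

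Interleukin-1 alpha and beta are inflammatory cytokines that act on the same receptor, a pair of chains encoded by Il1r1 and Il1rap, which signals through MyD88. The receptor antagonist encoded by Il1rn occupies the receptor without signalling, and the decoy receptor encoded by Il1r2 binds the cytokine without signalling. Interleukin-1 beta and interleukin-18 are made as precursors that caspase-1 cleaves inside an inflammasome such as the one built on NLRP3. Transcript levels therefore say nothing of how much mature cytokine was released, and dendritic cells and macrophages are both known sources.

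All values below are log2 of the deposited array intensity, and a difference is the mean of the BRAF arrays minus the mean of the WT arrays, on the log2 scale, with its standard error. Calls are from limma, fitted over all 18 arrays and 15365 genes, with Benjamini-Hochberg adjustment over those genes and a threshold of 0.05. Levels of different genes were not set against each other, since their probes differ. The array medians were 93.7 to 113.2 intensity units. BRAF BMDC replicate 2 and WT liver CD11b+ replicate 3 had a narrow spread of signal, with an interquartile range of 1.9 and 1.92 (log2), against 2.41 to 2.99 on the other arrays. The labelled surface markers were borne out: Itgae, which encodes CD103, read 10.6 to 12.18 in lung CD103+ cells and 7.65 at most elsewhere, and Itgax, which encodes CD11c, read 10.66 to 12.18 on all 18 arrays. Itgam, which encodes CD11b, read 9.32 to 11.92 in BMDC and the CD11b+ cells of liver and lung. In lung CD103+ cells Itgam read 8.39 and 8.21 on the BRAF arrays, against 6.87 and 6.9 on the WT arrays. That difference was 1.41 ± 0.42 and was not called (limma adjusted p = 0.377). Braf read 8.09 to 9.22 and was not called in any population, but the array does not tell its mutant allele from the normal one.

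Il1rn was the only member that passed the test between genotypes, higher in BRAF than in WT lung CD103+ cells by 2.33 ± 0.4. Il1rn and Il1a were also the only members higher on every BRAF array than on every WT array in BMDC and both lung populations. Il1b showed no such pattern in any population. The receptor and inflammasome genes gave differences that did not pass. Among them Il1r2 was higher on every BRAF array in BMDC and lower on both in lung CD11b+ cells.

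**Figure D1:**
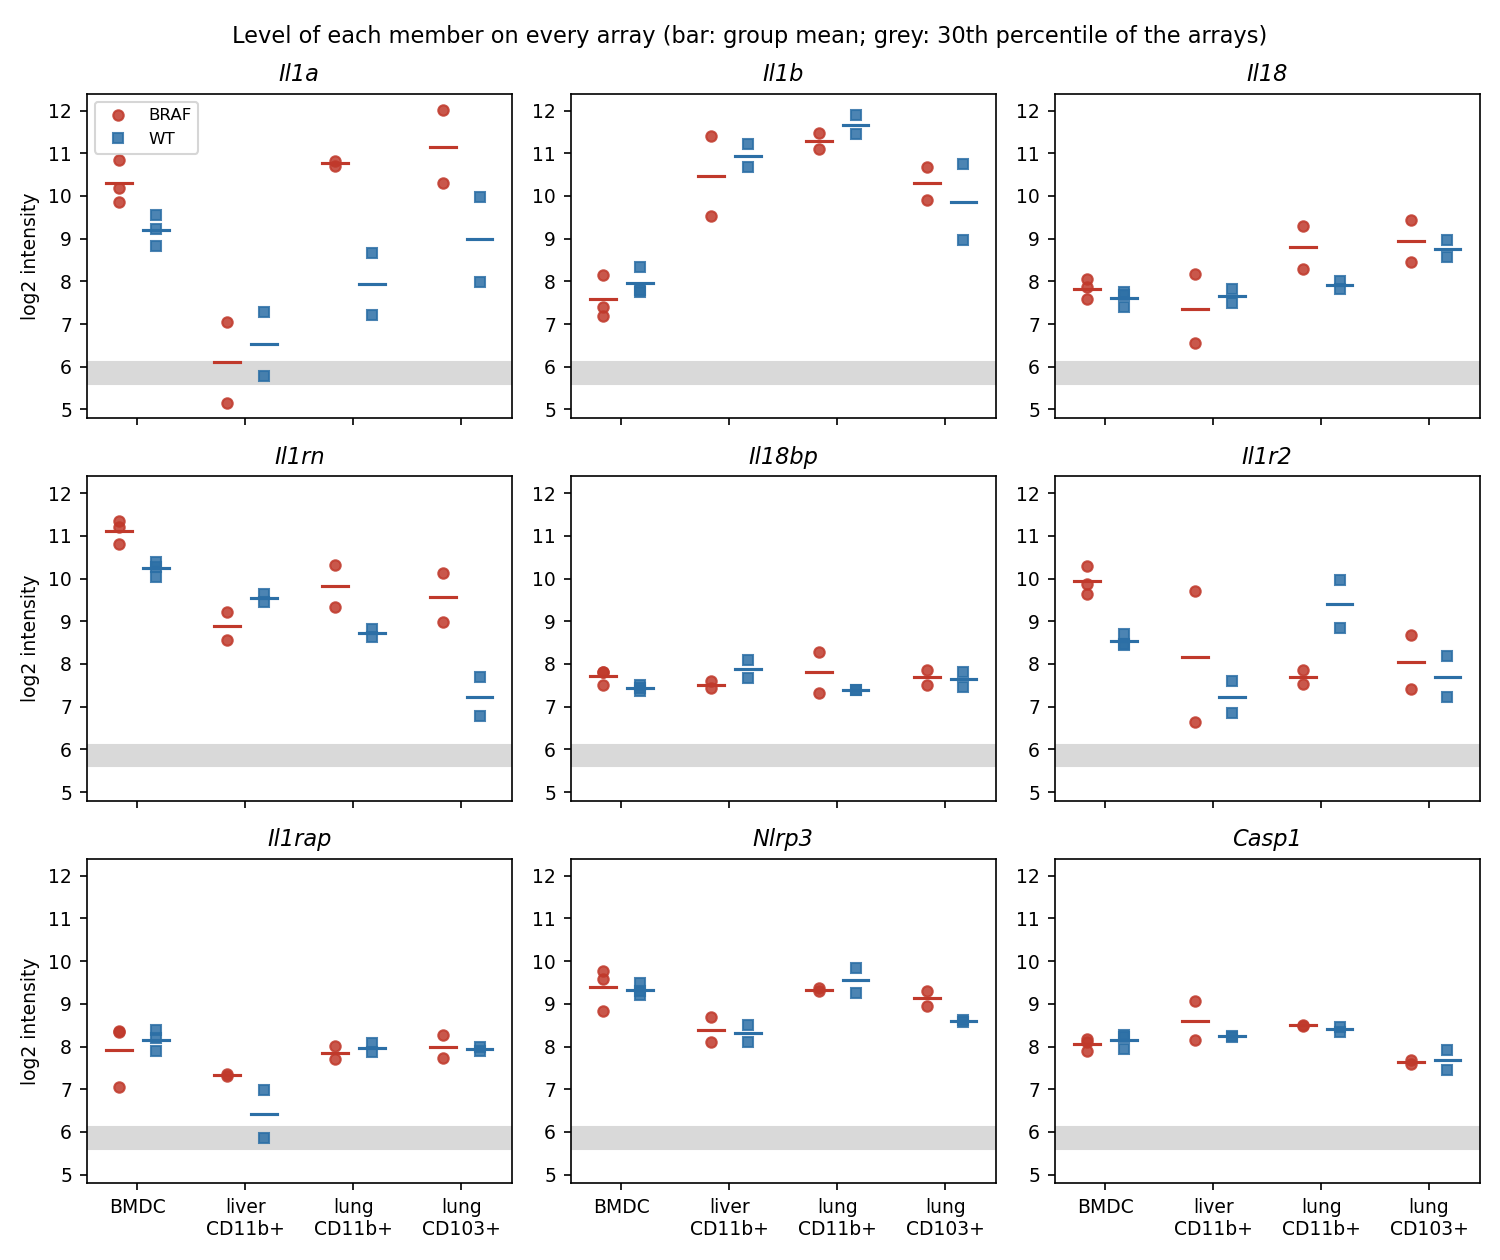
Log2 array signal of the 9 measured members on every array, with 1 panel per gene, the 4 populations along the x axis, BRAF points left of WT points, a bar at each group mean and a grey band over the range of the arrays' 30th percentiles. In the Il1a and Il1rn panels the BRAF points of BMDC and both lung populations all lie above the WT points, while the Il1b points of the genotypes overlap in every population.

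Il1a and Il1b are adjacent protein-coding genes on chromosome 2, and Il1rn lies on the same chromosome, away from them. The 250 bases before the annotated start of these 3 related genes are shown. Il1a and Il1rn were higher on every BRAF array in BMDC and both lung populations, and Il1b was not. The genotype differences of these genes were not tested against each other. The sequences are RefSeq's, build GRCm38.p6, read 5' to 3' on the gene's own strand. Capitals mark matches to TGANTCA, the motif of AP-1, a transcription factor family that the RAF, MEK and ERK kinases are known to act on.
Il1a, chr2:129309973-129310222, minus strand: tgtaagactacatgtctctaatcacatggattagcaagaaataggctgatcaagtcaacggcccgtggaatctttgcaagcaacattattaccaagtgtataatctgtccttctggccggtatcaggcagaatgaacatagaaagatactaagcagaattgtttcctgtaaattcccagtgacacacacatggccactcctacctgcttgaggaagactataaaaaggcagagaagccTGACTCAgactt
Il1b, chr2:129371140-129371389, minus strand: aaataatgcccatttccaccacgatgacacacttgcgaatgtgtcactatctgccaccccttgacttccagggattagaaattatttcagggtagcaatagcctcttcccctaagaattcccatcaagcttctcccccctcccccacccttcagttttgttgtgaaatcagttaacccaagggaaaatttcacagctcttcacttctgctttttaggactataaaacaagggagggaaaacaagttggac
Il1rn, chr2:24336610-24336859, plus strand: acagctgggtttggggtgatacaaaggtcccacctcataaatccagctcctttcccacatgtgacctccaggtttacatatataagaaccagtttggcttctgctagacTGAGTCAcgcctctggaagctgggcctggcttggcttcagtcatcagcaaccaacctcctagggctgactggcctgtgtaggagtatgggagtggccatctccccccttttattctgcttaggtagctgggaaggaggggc
The Il1a match lay 12 to 6 bases before the start and the Il1rn match 141 to 135 bases before it. No match to these letters was in the Il1b window, nor in the windows of the other 2 annotated Il1rn starts. The motif was searched on both strands, and 6.75% of the 32851 windows of this kind in the RefSeq table held it. Searched in the same way were the motifs of NF-kB (in 7.25% of all windows), PU.1 (GAGGAAGT, 2.44%), C/EBP (TTACNNAA or TTGCNNAA, 16.5%) and ETS factors (CCGGAAA or CCGGAAG, 9.1%), of which PU.1 and ETS share the letters GGAAG. None of these 4 was in the 3 windows shown. Elsewhere among the members, NF-kB letters were in 1 Il1r1 and 1 Nlrp3 window and C/EBP letters in 1 Il1r1 and 1 Il18bp window. A match is a description of the letters and not evidence of binding, and no match says only that the letters are not in that window.

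Il1a, the cytokine that is active without caspase-1, read 10.19, 10.85 and 9.87 on the BRAF BMDC arrays, against 9.23, 8.84 and 9.56 on the WT BMDC arrays. In lung CD11b+ cells it read 10.71 and 10.82 on the BRAF arrays, against 8.66 and 7.21 on the WT arrays. In lung CD103+ cells it read 12.01 and 10.3 on the BRAF arrays, against 9.98 and 7.99 on the WT arrays. In all 3 populations the lowest BRAF array lay above the highest WT array. In liver CD11b+ cells it read 7.05 and 5.16 on the BRAF arrays, against 7.29 and 5.79 on the WT arrays, where the genotypes overlapped and replicate 3 of each lay under the 30th percentile of its array.

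For Il1a the BRAF minus WT values were 1.1 ± 0.62 (BMDC), 2.83 ± 0.76 (lung CD11b+) and 2.17 ± 0.76 (lung CD103+), and none was called (limma adjusted p = 0.737, 0.179 and 0.613). The 95% interval of the lung CD11b+ difference was 1.21 to 4.45. Leaving out 1 lung CD103+ array moved the value there to 1.18 (WT replicate 3 left out), 1.31 (BRAF replicate 1), 3.02 (BRAF replicate 2) or 3.16 (WT replicate 1). In liver CD11b+ cells the difference was -0.43 ± 0.76. The mean over the 4 populations was 1.42 ± 0.36, or 2.67-fold, and did not pass (adjusted p = 0.0903). With array weights the BMDC and lung CD11b+ differences passed (adjusted p = 0.0456 and 0.0208), and the mean passed in 3 of 18 fits that left out 1 array.

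Il1b, the cytokine that needs cleavage, read 7.19, 8.16 and 7.39 on the BRAF BMDC arrays, against 7.79, 7.75 and 8.34 on the WT arrays. In lung CD11b+ cells it read 11.09 and 11.47 on the BRAF arrays, against 11.89 and 11.44 on the WT arrays. The genotypes overlapped in both, as they did in liver CD11b+ cells (11.4 and 9.54 on the BRAF arrays, against 11.21 and 10.67 on the WT arrays) and in lung CD103+ cells (10.69 and 9.9 on the BRAF arrays, against 10.76 and 8.98 on the WT arrays). Its differences ran from -0.47 ± 0.58 in liver to 0.42 ± 0.58 in lung CD103+ cells. The mean over the 4 populations was -0.2 ± 0.28, with a 95% interval of -0.8 to 0.4. The interval of the Il1a mean was 0.64 to 2.19.

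Il1a and Il1b moved together among replicates, although only Il1a was higher on every BRAF array in BMDC and both lung populations. Over the 18 arrays their log2 signals had r = -0.2, while their deviations from the group means had r = 0.91. Both numbers are descriptions over 18 arrays that share 8 groups, and in a group of 2 arrays the deviations are equal and opposite. Such co-movement was not particular to this pair. The deviations of Il1b also had r = 0.8 with Casp1, 0.72 with Il18 and 0.61 with Il1rn, against -0.18 with Il1rap. The array high in one tended to be high in the other: in lung CD103+ cells BRAF replicate 1 and WT replicate 1 were the higher of their pair for both genes, and in liver BRAF replicate 2 and WT replicate 1.

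Il18, the other caspase-1 substrate, read 8.29 and 9.3 on the BRAF lung CD11b+ arrays, against 7.81 and 8 on the WT arrays, with the genotypes apart. In lung CD103+ cells it read 9.43 and 8.45 on the BRAF arrays, against 8.96 and 8.56 on the WT arrays. In BMDC it ranged from 7.58 to 8.05 on the BRAF arrays and from 7.39 to 7.76 on the WT arrays, and in liver from 6.55 to 8.17 and from 7.5 to 7.82. The genotypes overlapped in the last 3 populations. The lung CD11b+ difference was 0.89 ± 0.45 (adjusted p = 0.802), and the others lay between -0.3 and 0.22.

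Il1rn, the receptor antagonist gene, read 10.13 and 8.99 on the BRAF lung CD103+ arrays, against 7.69 and 6.77 on the WT lung CD103+ arrays. The lower BRAF array lay above the higher WT array. The difference of 2.33 ± 0.4, or 5.03-fold, was called (limma adjusted p = 0.0436, 95% interval 1.47 to 3.19, n = 2 each), in a comparison where 0.0846% of all genes were called. Leaving out BRAF replicate 1 gave 1.76 (adjusted p = 0.668) and leaving out WT replicate 3 gave 1.87 (adjusted p = 0.407), which ended the call. A fit of these groups alone ended it too (adjusted p = 0.581). The adjusted p lay just over the threshold with quantile normalization (0.0655), median centring (0.0504) or array weights (0.0509), and without the 2 arrays of narrow spread (0.058).

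In BMDC, Il1rn read 11.35, 10.81 and 11.21 on the BRAF arrays, against 10.28, 10.04 and 10.39 on the WT arrays. In lung CD11b+ cells it read 9.33 and 10.31 on the BRAF arrays, against 8.63 and 8.82 on the WT arrays. Neither pair of groups overlapped, and the differences were 0.89 ± 0.33 and 1.1 ± 0.4, neither of which passed (adjusted p = 0.575 and 0.466). With array weights the BMDC difference passed (1.14, adjusted p = 0.000346). In liver CD11b+ cells the order was turned, with 9.22 and 8.55 on the BRAF arrays, against 9.63 and 9.44 on the WT arrays, and a difference of -0.65 ± 0.4 (adjusted p = 0.448).

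The mean Il1rn difference over the 4 populations was 0.92 ± 0.19 and was called (adjusted p = 0.0346), where 0.989% of all genes were called. That call was lost in 13 of 18 fits that left out 1 array, with adjusted p up to 0.102 and a difference of 0.77 to 1.06 over the 18 fits. The difference of the genotype effect between the 4 populations did not pass for Il1rn (adjusted p of the F test = 0.183), and for none of the 9 members, against 0.124% of all genes. At an unadjusted p under 0.05, 3 members passed that F test: Il1a, Il1rn and Il1r2. No share of all genes is given here for that looser threshold.

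**Figure D2:**
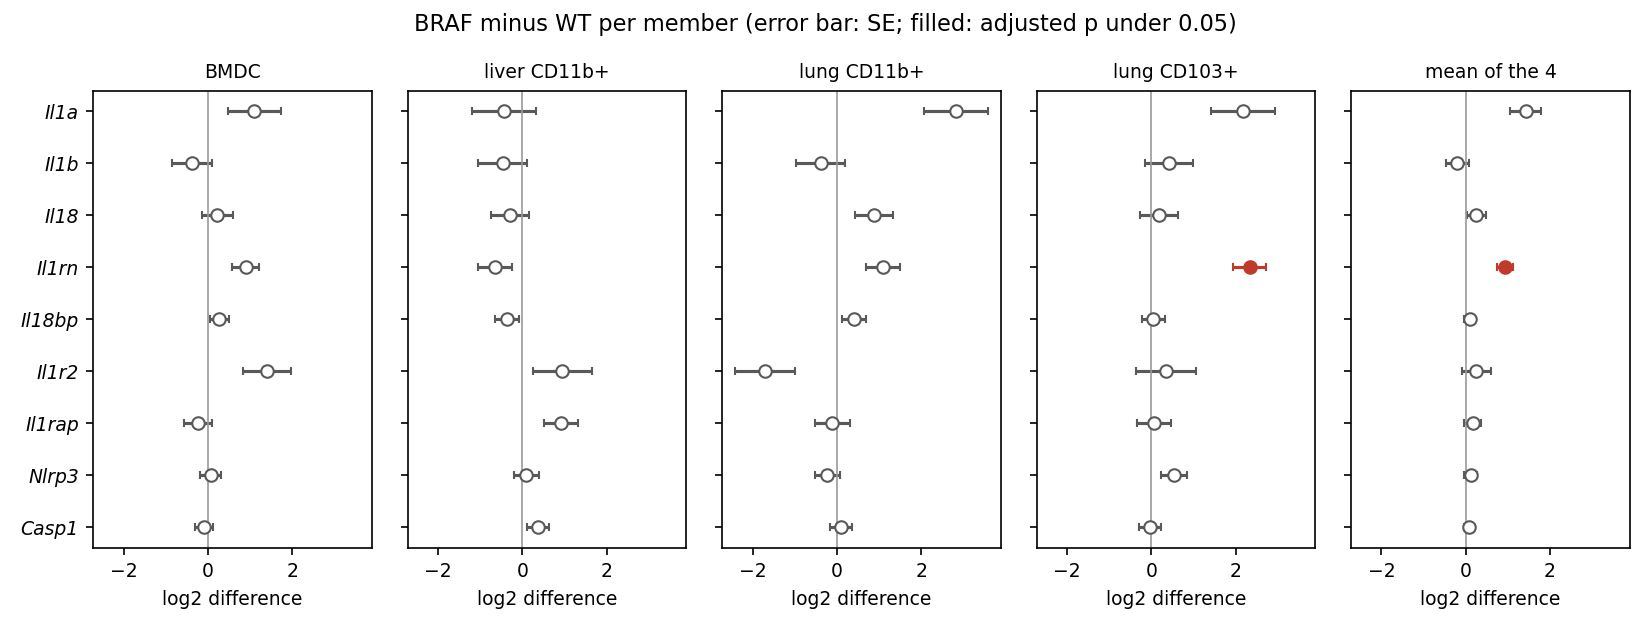
Log2 difference, BRAF minus WT, of the 9 measured members in the 4 populations and as the mean over them, with bars of 1 standard error from the limma fit and filled points where the adjusted p was under 0.05. Il1rn in lung CD103+ cells (2.33) and the Il1rn mean (0.92) are the filled points, and the Il1a points of BMDC and both lung populations lie at 1.1 to 2.83.

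Markers of macrophages, which are known to express Il1rn, moved with its difference in lung CD103+ cells. All 10 macrophage genes of the list were higher in BRAF cells there on average, by a median of 2.01, although none was called. Their mean log2 signal was 10.61 and 8.98 on BRAF replicates 1 and 2, against 8.51 and 7.31 on WT replicates 1 and 3, the same order as Il1rn within each genotype. Their summed intensity was 7876 to 21396 on the BRAF arrays, against 4161 to 6412 on the WT arrays. On both BRAF arrays 10 of 10 lay above the array's 30th percentile, against 9 to 10 on the WT arrays, where Mertk, a macrophage receptor for dying cells, lay under it on replicate 3 at 4.92. Adgre1, which encodes F4/80, read 10.32 and 9.42 on the BRAF arrays, against 8.58 and 6.92 on the WT arrays. The monocyte list lay in the same direction, with a mean log2 signal of 9.7 and 8.72 on BRAF replicates 1 and 2, against 8.12 and 7.01 on WT replicates 1 and 3. Of its 5 genes 3 had a positive difference, with a median of 2.43, and 0 were called. The part of macrophages or monocytes in the Il1rn difference was not tested. In bulk sorted samples, a different share of cells of a type and a different amount of RNA per cell cannot be told apart.

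The type 1 dendritic cell list, which describes CD103+ dendritic cells, averaged 11.07 and 11.42 on the BRAF lung CD103+ arrays, against 11.3 and 11.58 on the WT arrays. The same arrays differed in the neutrophil list, with means of 6.39 and 5.82 on the BRAF arrays, against 5.8 and 5.39 on the WT arrays. Its median difference was 0.33, with 7 of 11 genes positive, from -0.27 (Camp) to 2.54 (Mmp8). Ly6g read 4.8 to 5.3 on the BRAF arrays, against 4.78 and 4.79 on the WT arrays. Alb, a hepatocyte gene, read 10.98 on BRAF lung CD103+ replicate 1 and 5.94 to 7.8 on the other 3 arrays of that population. The macrophage list did not move with Il1rn or Il1a in the other populations, with medians of -0.47 in BMDC, -0.09 in liver and -0.13 in lung CD11b+ cells. In lung CD11b+ cells the alveolar macrophage list averaged 7.57 and 8.73 on BRAF replicates 1 and 2, against 6.97 and 6.38 on the WT arrays. Its median difference was 0.48, with 5 of 7 genes positive, from -0.16 (Fabp4) to 3.89 (Chil3). The neutrophil list averaged 7.2 and 6.63 on the BRAF arrays there, against 6.42 and 6.34 on the WT arrays. Its median difference was 0.52, with 8 of 11 genes positive, from -0.99 (Cxcr2) to 3.01 (Mmp8). The conventional dendritic cell list averaged 8.3 to 9.12 on the BRAF arrays there, against 9.61 to 9.66 on the WT arrays. The type 2 dendritic cell list averaged 10.12 to 10.72 on the BRAF arrays, against 11.2 to 11.23 on the WT arrays. In both lists 5 of 6 genes were negative. The Kupffer cell list averaged 6.52 to 9.13 on the BRAF arrays, against 7.14 to 7.2 on the WT arrays. Of its 6 genes 5 were positive. No gene of these lists was called there. Mature dendritic cell markers were lower in BRAF cells of every population by their medians, of -0.8 (BMDC), -1.18 (liver), -1.96 (lung CD11b+) and -1.09 (lung CD103+). The lowest gene was Ccl22 in BMDC (-2.43), Ccl17 in liver (-3.54) and Ccr7 in lung CD11b+ (-3.11) and lung CD103+ cells (-2.03). Ccr7 was called lower in BMDC and both lung populations, and Fscn1 in lung CD11b+ cells. The part of these cells in the members' values was not tested.

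**Figure D3:**
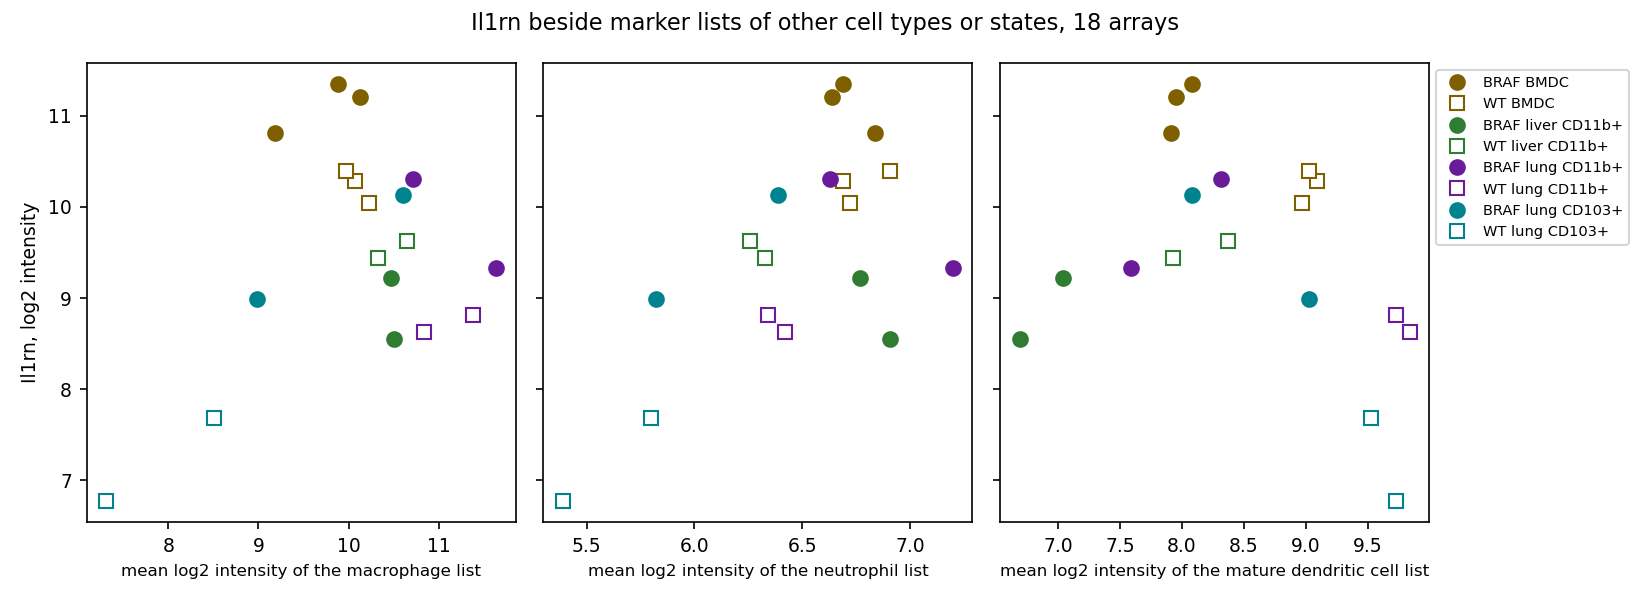
Il1rn log2 signal on the y axis against the mean log2 signal of the macrophage, neutrophil and mature dendritic cell lists on the x axes of 3 panels, for the 18 arrays, with filled circles for BRAF, open squares for WT and a colour per population. In the macrophage panel the 4 lung CD103+ arrays run from 7.31 and 6.77 (WT replicate 3) to 10.61 and 10.13 (BRAF replicate 1), while the BMDC arrays differ in Il1rn by genotype at macrophage means that overlap.

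Il18bp, which encodes a secreted protein that binds interleukin-18, stayed between 7.33 and 8.28 on all 18 arrays. Its lowest liver value was on BRAF replicate 3, at 7.43, and both BRAF liver arrays (7.6 and 7.43) lay under both WT liver arrays (7.66 and 8.1). The 4 genotype differences ran from -0.37 ± 0.28 in liver to 0.41 ± 0.28 in lung CD11b+ cells, and none was called. The mean over the populations was 0.09, with a 95% interval of -0.19 to 0.37.

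Il1r2, the decoy receptor, read 9.87, 9.63 and 10.3 on the BRAF BMDC arrays, against 8.46, 8.69 and 8.45 on the WT BMDC arrays. In lung CD11b+ cells it read 7.87 and 7.53 on the BRAF arrays, against 9.97 and 8.85 on the WT arrays. The genotypes were apart in both populations, in opposite directions. The differences were 1.4 ± 0.58 and -1.71 ± 0.71, and neither passed (adjusted p = 0.677 and 0.615). With array weights the BMDC difference passed (adjusted p = 0.00326). The difference between these 2 effects was -3.1 ± 0.92 and did not pass (adjusted p = 0.419), where 0.13% of genes were called.

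In lung CD11b+ cells the list of genes induced by tissue dissociation also moved, with means of 9.78 to 10.12 on the BRAF arrays, against 11.19 to 11.42 on the WT arrays, and a median difference of -1.37 over 8 genes, of which none was called. Its part in the Il1r2, Il1a and Il1rn values of that population was not tested. In liver Il1r2 read 9.7 and 6.64 on the BRAF arrays, against 7.6 and 6.84 on the WT arrays, and in lung CD103+ cells 7.42 and 8.68 on the BRAF arrays, against 8.18 and 7.23 on the WT arrays. These overlapped. The spread of 3.06 between the BRAF liver arrays was wider than each of the 4 Il1r2 genotype differences.

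Il1rap, the shared signalling chain, ranged from 7.05 to 8.38 in BMDC and both lung populations, with genotypes that overlapped. In liver CD11b+ cells it read 7.35 and 7.3 on the BRAF arrays, against 6.98 and 5.85 on the WT arrays, the last of which lay under the 30th percentile of its array. The liver difference was 0.91 ± 0.41 (adjusted p = 0.339), and the other differences lay between -0.24 and 0.06. The 95% intervals were -0.95 to 0.48 in BMDC, -0.98 to 0.77 in lung CD11b+ cells and -0.82 to 0.93 in lung CD103+ cells.

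Nlrp3, the inflammasome sensor, read 9.31 and 8.96 on the BRAF lung CD103+ arrays, against 8.57 and 8.61 on the WT arrays, which did not overlap. The difference was 0.54 ± 0.3 (adjusted p = 1). In BMDC it read 9.58, 8.84 and 9.76 on the BRAF arrays, against 9.48, 9.31 and 9.21 on the WT arrays. In liver it read 8.69 and 8.1 on the BRAF arrays, against 8.51 and 8.1 on the WT arrays, and in lung CD11b+ cells 9.29 and 9.36 on the BRAF arrays, against 9.84 and 9.26 on the WT arrays. These overlapped, with differences of 0.06, 0.09 and -0.23.

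Casp1, which encodes the protease, had the narrowest intervals of the receptor and inflammasome genes. It read 8.48 and 8.51 on the BRAF lung CD11b+ arrays, against 8.34 and 8.46 on the WT arrays, apart but by little. In BMDC it ranged from 7.89 to 8.17 on the BRAF arrays and from 7.95 to 8.28 on the WT arrays, in liver from 8.15 to 9.06 and from 8.22 to 8.25, and in lung CD103+ cells from 7.6 to 7.69 and from 7.45 to 7.91. The mean difference over the 4 populations was 0.08, with a 95% interval of -0.18 to 0.35. Its sign turned in 3 populations under quantile normalization.

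Counted over the members, 0 of 9 were called in BMDC, liver CD11b+ and lung CD11b+ cells, against 0.521%, 0.215% and 0.338% of all genes. At an unadjusted p under 0.05 limma had 2, 1 and 3 members there, a threshold to which these shares of all genes do not apply. The median over the 9 members was 0.22 (BMDC), -0.3 (liver), 0.09 (lung CD11b+) and 0.34 (lung CD103+), beside 0, 0.08, 0 and -0.08 over all genes. Groups of BRAF and WT arrays did not overlap for 3 of 9 members in BMDC, where 16.1% of genes were so, and for 3 in liver, where 38.5% were. They were apart for 5 of 9 in lung CD11b+ cells, where 46.4% of genes were so, and for 3 of 9 in lung CD103+ cells, where 28.4% were. The lung and liver counts are near that background. Of all genes, 92 (0.599%) were higher on every BRAF array in BMDC, lung CD11b+ and lung CD103+ cells, and Il1a and Il1rn were among them. That rule follows the pattern of these 2 members and leaves out liver, where Il1rn was lower on both BRAF arrays and Il1a overlapped. Other combinations of populations were not counted, so the share is a description and not a test.

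Differences of the genotype effect between pairs of populations were called for no member. In lung CD103+ cells against BMDC 0.0521% of genes were called, in lung CD11b+ cells against BMDC 0.13%, and in liver against BMDC 0.137%. In the other 3 pairs (lung CD103+ against lung CD11b+, lung CD103+ against liver, and lung CD11b+ against liver) 0% were called. At an unadjusted p under 0.05, 1 to 3 members passed in each of the 6 pairs. The share of all genes at that looser threshold is not given here, so these counts have no background.

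Among WT cells the members' levels did depend on the population. The F test over the 4 WT populations called 5 of 9 members, where 20.2% of all genes were called: Il1a (adjusted p = 0.0438), Il1b (0.00072), Il1rn (0.000294), Il1rap (0.0155) and Nlrp3 (0.017). BMDC differ from the organ cells in culture and in the age of the mice as well as in cell type, and these cannot be told apart. The list of genes induced by tissue dissociation differed too, with 8 of 8 genes called by this F test. Its mean log2 signal was 7.74 to 8.01 on the WT BMDC arrays and 9.84 to 10.78 in WT liver. In WT lung it was 9.85 to 10.28 in CD103+ cells and 11.19 to 11.42 in CD11b+ cells. The part of dissociation in the members' WT levels was not tested.

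BMDC had the lowest WT mean of Il1b and the highest of Il1rn, while lung CD103+ cells had the lowest mean of the organ populations for both genes. The WT mean of Il1b was 11.66 ± 0.32 in lung CD11b+, 10.94 ± 0.38 in liver CD11b+, 9.87 ± 1.26 in lung CD103+ cells (SD, n = 2 each) and 7.96 ± 0.33 in BMDC (SD, n = 3). All 3 organ populations were called higher than BMDC, by 3.7 ± 0.53 (lung CD11b+, adjusted p = 0.000435), 2.98 ± 0.53 (liver, 0.00246) and 1.92 ± 0.53 (lung CD103+, 0.03). The last call was lost without WT lung CD103+ replicate 1 (1.02) and without WT BMDC replicate 1 or 2 (1.83 and 1.81). No pair of organ populations was called for Il1b.

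The WT mean of Il1rn was 10.24 ± 0.18 in BMDC (SD, n = 3), 9.54 ± 0.13 in liver CD11b+ cells, 8.73 ± 0.13 in lung CD11b+ cells and 7.23 ± 0.65 in lung CD103+ cells (SD, n = 2 each). Lung CD103+ cells were called lower than BMDC, by -3.01 ± 0.37 (adjusted p = 5.71e-05), and lower than liver cells, by -2.3 ± 0.4 (adjusted p = 0.00236). Lung CD11b+ cells were called lower than BMDC, by -1.52 ± 0.37 (adjusted p = 0.0181), a call lost in 4 of 5 fits without 1 array. Lung CD103+ minus lung CD11b+ cells gave -1.49 ± 0.4, just short of a call (adjusted p = 0.0547). The population with the lowest WT level was the one with the largest genotype difference, both read from the same WT arrays. In BRAF cells Il1rn spanned 2.24 between the highest and the lowest population mean, against 3.01 in WT cells.

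Il1a was called lower in WT liver CD11b+ cells than in WT BMDC, by -2.67 ± 0.69 (adjusted p = 0.019), with WT means of 6.54 ± 1.06 (SD, n = 2) and 9.21 ± 0.36 (SD, n = 3). The call was lost without WT liver replicate 3 (-1.92) and without WT BMDC replicate 1 or 3 (-2.66 and -2.5). Il1a took another order in BRAF cells, where lung CD103+ cells had the highest mean, 11.16, and liver the lowest, 6.1, against BMDC highest and liver lowest in WT cells. The span between these means was 5.05 in BRAF cells and 2.67 in WT cells.

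WT liver CD11b+ cells were also low in Il1rap and Nlrp3. Il1rap averaged 6.42 ± 0.8 in WT liver (SD, n = 2), and was lower than in BMDC by -1.74 ± 0.37 (adjusted p = 0.00748), while lung CD103+ cells were above liver by 1.52 ± 0.41 (adjusted p = 0.0309). Both calls were lost without WT liver replicate 3, an array of narrow spread (-1.18 and 0.96), and the lung call also without WT lung CD103+ replicate 1 or 3 (1.47 and 1.58). Nlrp3 was lower in liver than in BMDC by -1.02 ± 0.28 (adjusted p = 0.0231) and higher in lung CD11b+ cells than in liver by 1.24 ± 0.3 (adjusted p = 0.0482). After quantile normalization these were -0.51 and 0.73, and neither passed. The liver minus BMDC call was lost in 5 of 15 alternatives, among them those without WT BMDC replicate 1 or 2 (-0.95 and -1.04) and without WT liver replicate 3 (-0.82), with adjusted p up to 0.22. The Nlrp3 call of lung CD11b+ minus liver cells was lost in 10 of 14, among them those without WT liver replicate 3 (1.04) and without WT lung CD11b+ replicate 1 or 3 (0.96 and 1.53), with adjusted p up to 0.413, and with the replicate block (adjusted p = 0.0696).

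By pair, 4 members were called for liver minus BMDC, where 17.2% of genes were, 2 for lung CD103+ minus BMDC, where 10.9% were, and 2 for lung CD11b+ minus BMDC, where 8.14% were. For lung CD103+ minus liver 2 were called, where 9.35% of genes were, and for lung CD11b+ minus liver 1, where 2.08% were. For lung CD103+ minus lung CD11b+ 0 were called, where 3.75% of genes were. In that last pair 5 members had an unadjusted p under 0.05 in the limma fit, a threshold to which the 3.75% does not apply. Neighbours in an order that are not named here did not differ by the test. Il1r2, Il18, Il18bp and Casp1 did not pass the F test (adjusted p = 0.115, 0.164, 0.423 and 0.18).

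**Figure D4:**
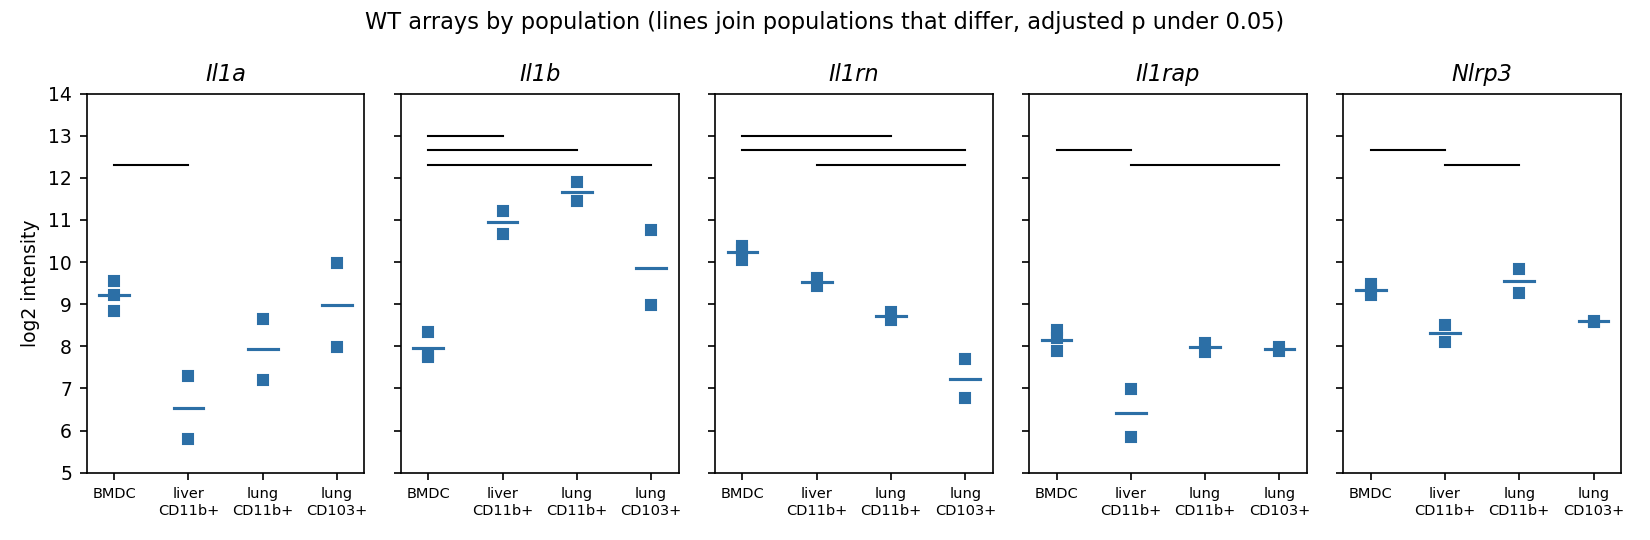
Log2 signal of the 5 members called by the F test over the 4 WT populations, with every WT array as a square, a bar at each group mean and horizontal lines joining the pairs of populations called by limma. Il1b is lowest and Il1rn highest in BMDC, and Il1a, Il1rap and Nlrp3 are lowest in liver.

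Each member was set against all tested genes by Pearson's r over the 18 arrays, which share 8 groups. Nearest to Il1a were Phxr4 (r = 0.893), Ell2 (0.843) and Usp17ld (0.831), and nearest to Il1b were Abca9 (0.929), Gpr18 (0.926) and Ccrl2 (0.925). Nearest to Il1rn were Ccl6 (0.903), Bhlhe41 (0.902) and Galnt3 (0.895). Il1rap was nearest to Synj2 (0.968), Nlrp3 to Fcho2 (0.902), Il18 to Slc9a4 (0.891), Casp1 to Plcl1 (0.869) and Il18bp to Ptgis (0.849). Il1r2 had the loosest neighbour, Arhgap6 (0.764).

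The rest of the pathway was described by 6 lists, with the lowest and highest genes named as the ends of each range. In the 4 populations 0.521% (BMDC), 0.215% (liver), 0.338% (lung CD11b+) and 0.0846% (lung CD103+) of all genes were called, and 1 gene of these lists was. It was Lcn2, an iron-siderophore binding protein that interleukin-1 is known to induce, which read 9.54 and 10.4 on the BRAF liver CD11b+ arrays, against 6.09 and 6.73 on the WT liver arrays. Its difference was 3.56 ± 0.65 (adjusted p = 0.0453), in the population where Il1a, Il1b and Il1rn were not higher in BRAF cells. The call was lost in 6 of 13 alternative fits, among them those without WT liver replicate 1 or 3 and without BRAF liver replicate 3 (adjusted p up to 0.153), and with array weights (adjusted p = 0.73). Neutrophils also express Lcn2. The neutrophil list had a mean log2 signal of 6.77 and 6.91 on the BRAF liver arrays, against 6.26 and 6.33 on the WT liver arrays. Its median difference was only 0.03, beside 0.08 over all genes. Of its 11 genes 7 were positive and 4 negative, from -1.36 (Cxcr2) to 3.22 (Mmp9). Its summed intensity was 1707 to 3806 on the BRAF arrays, against 1061 to 1211 on the WT arrays, with 7 to 10 of 11 genes above the 30th percentile, against 7 to 8. S100a8, a gene abundant in neutrophils, read 6.91 and 6.83 on the BRAF liver arrays, against 5.78 and 5.68 on the WT liver arrays. Of the same list, S100a9 had a difference of 0.0 in liver and Csf3r of -0.74. The monocyte list averaged 10.14 and 10.72 on the BRAF liver arrays, against 9.75 and 9.33 on the WT liver arrays. The part of these cells in the Lcn2 difference was not tested.

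The list of genes widely induced by interleukin-1 had 13 of 15 genes tested. In lung CD103+ cells 10 of 13 had a positive difference, with a median of 0.6, from -0.41 (Tnfaip3) to 2.89 (Cxcl2). In BMDC 8 of 13 were positive, with a median of 0.15, from -0.98 (Icam1) to 2.2 (Cxcl2, a chemokine for neutrophils). Lung CD11b+ cells, where the Il1a difference was largest, had 6 of 13 positive, with a median of -0.02, from -1.91 (Il6) to 1.79 (Saa3), and in liver 4 of 13, with a median of -0.34. These genes respond to many other signals too.

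Of the 15 tested genes of MyD88 signalling below the receptor, none was called and the signs followed the population. In BMDC 15 of 15 were negative (median -0.34, lowest Irak3 at -0.58), in lung CD11b+ cells 14 of 15 (median -0.27, lowest Ikbkb at -0.93), in lung CD103+ cells 8 of 15 (median -0.08), and in liver 2 of 15 (median 0.29, highest Tab3 at 0.84). In BMDC and in liver the lowest list mean was on the array of narrow spread, BRAF BMDC replicate 2 and WT liver replicate 3. The signs without these arrays were not counted. The list mean was 8.89, 7.95 and 8.91 on BRAF BMDC replicates 1, 2 and 3, against 9.01, 8.95 and 8.7 on the WT arrays, so BRAF replicate 2 stood apart and the other 2 lay among the WT arrays. In liver it was 8.62 and 8.69 on the BRAF arrays, against 8.59 and 8.05 on WT replicates 1 and 3, so both BRAF arrays lay above both WT arrays.

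No gene of the other 4 lists was called. Of 17 inflammasome sensors, adaptors and regulators 5 were positive in BMDC and 11 in liver, 6 in CD11b+ and 10 in CD103+ lung cells, with medians from -0.12 to 0.1. Nlrp1b, a sensor, was the lowest of them in the mean over the populations at -0.69 ± 0.17 (adjusted p = 0.084), and Pycard, the adaptor ASC, the highest at 0.27 ± 0.14. Of 8 caspases and pyroptosis genes the positive ones numbered 2 (BMDC), 7 (liver), 6 (lung CD11b+) and 5 (lung CD103+). Casp4, the caspase that senses cytosolic lipopolysaccharide, was highest in lung CD103+ cells at 1.32 ± 0.4 (adjusted p = 0.401). Among 4 receptors the positive ones numbered 1 (BMDC), 2 (liver), 0 (lung CD11b+) and 2 (lung CD103+), and Il1rl2, the receptor of interleukin-36, had the lowest value, -1.89 ± 0.49 in lung CD11b+ cells (adjusted p = 0.164). Among the other ligands of the family only Il1f9 and Il1f5 of 6 were bright enough to be tested, and Il33 was not. Il1rl1, Irak4, Chuk, Nlrp12 and Naip1 of the lists had no probe set under their own symbol and were not analysed here.

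**Figure D5:**
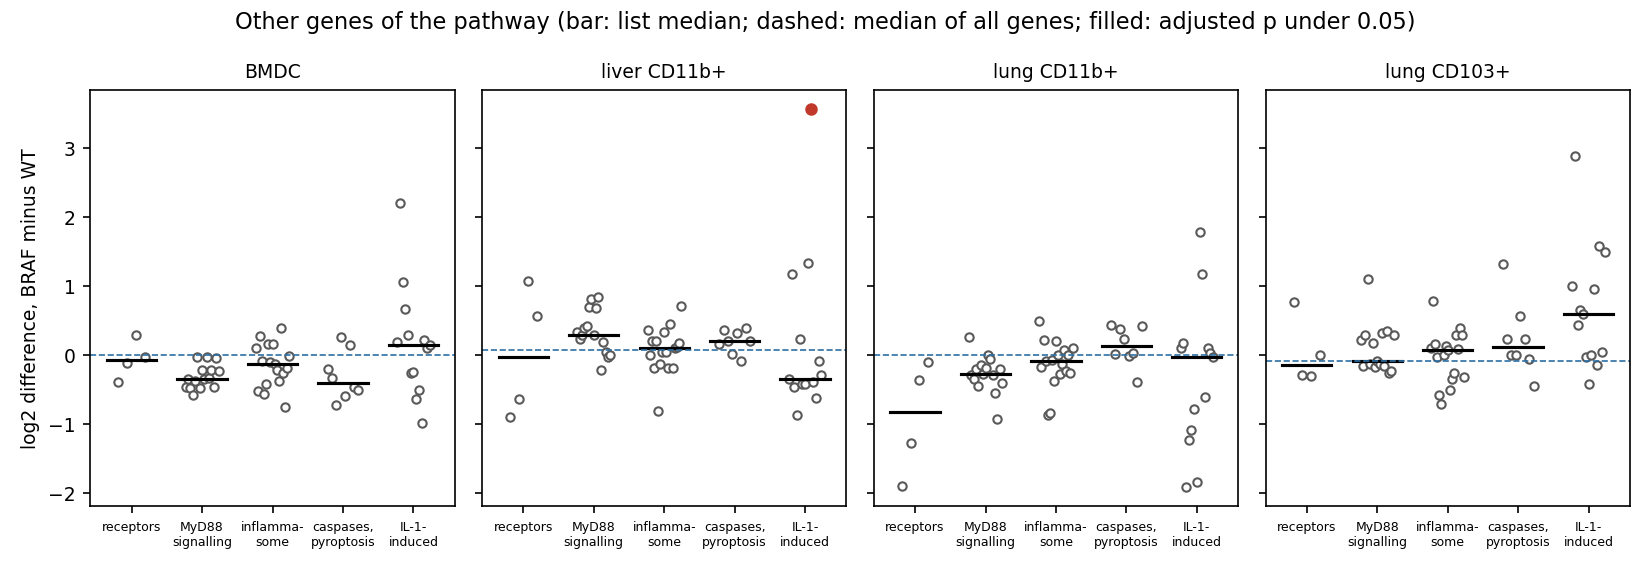
Log2 difference, BRAF minus WT, of every tested gene of 5 pathway lists (all but the other ligands) in the 4 populations, with 1 point per gene, a bar at each list's median and a dashed line at the median of all genes. The MyD88 list lies below 0 in BMDC (15 of 15 genes) and mostly above 0 in liver (13 of 15), and Lcn2 in liver, at 3.56, is the filled point.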

How the data were processed

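The data were 18 arrays of biotin-labelled total RNA from sorted mouse cells, per the labels' protocols. The table deposited by the authors holds 1 linear intensity per probe set and array. Its background correction and normalization are not given in the sources used here, and the array medians were close (93.7 to 113.2). Of 24922 probe sets, 21425 had 1 gene symbol in the platform annotation, 1399 had several and 2098 were not listed. For each of 19752 genes the probe set with the highest mean was used. Intensities were taken to log2 without a pseudocount, and genes above the 30th percentile of an array on at least 2 arrays were kept (15365).

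Tests used limma 3.58.1 in R 4.3.3, with a mean per group over all 18 arrays (10 residual and 4.8 prior degrees of freedom), tested on simulated data first. The number of arrays limits the precision. Genes were named by this rule: every member, each called gene of the pathway lists, and up to 3 genes most correlated with each member. The ends of a list's range were named after their values were seen. The members and lists were chosen with earlier results of these data known. Alternatives were the normalization, scaling, filter, probe set rule, spread model, array weights, samples in the fit, a replicate block and leaving out arrays. Same-numbered BRAF and WT BMDC arrays did not all deviate together (r = 0.469, -0.231 and -0.399 over genes), so the numbers were not used as pairs. Same-numbered lung CD103+ and lung CD11b+ arrays of a genotype had r = 0.22 (BRAF) and 0.159 (WT). The main fit took these arrays as independent, and whether they share mice is not labelled. The highest correlation between any 2 arrays was 0.9967, and no array was taken for a copy. Symbols of the pathway lists were matched to older names where needed.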

Additional observations from a re-analysis of the deposited data

Results flagged for a closer look

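In the following 4 results every BRAF array lay on one side of the WT arrays in one population and on the other side in another population. Each difference between the populations was tested in the limma fit, and none passed. For Il1rn, the genotype difference in lung CD103+ cells minus that in liver CD11b+ cells was 2.98 ± 0.57 (adjusted p = 0.112). The difference in lung CD11b+ cells minus that in liver was 1.75 ± 0.57 (adjusted p = 0.531), and that in liver minus that in BMDC was -1.54 ± 0.52 (adjusted p = 0.218). These 3 share the liver arrays. For Il1r2, the difference in lung CD11b+ cells minus that in BMDC was -3.1 ± 0.92 (adjusted p = 0.419).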

How the results depend on the processing

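Of the values of single genes under the alternatives, 802 kept their direction and their side of the threshold, 56 lost a call, 7 gained one and 39 turned sign, all of the last with no call. The count of members called in lung CD103+ cells was 1, and 0 after quantile normalization, median centring, array weights, a fit of only the groups compared, and without the 2 narrow arrays (0 to 1 without 1 array). With array weights it was 3 in BMDC (Il1a, Il1r2 and Il1rn), 1 in lung CD11b+ cells (Il1a) and 1 for the difference between populations (Il1r2). That setting gave BRAF BMDC replicate 2 a weight of 0.11. The count for the mean over the populations was 0 to 2 without 1 array. The 5 members that differed between WT populations were 3 after quantile normalization, and 2 to 5 without 1 array (2 without WT liver replicate 3). Apart from the construction of each alternative, the cause was not tested.

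Over all genes, 80 were called in BMDC (20 to 1656 over the alternatives), 33 in liver (1 to 358), 52 in lung CD11b+ (7 to 369), 13 in lung CD103+ cells (0 to 96) and 152 for the mean (67 to 325). Between populations 19 genes differed in genotype effect (5 to 249) and 3097 in WT level (1909 to 6086). A replicate block called 0 members in BMDC (Il1rn 0.89, adjusted p = 0.584) and 5 between WT populations. The block changed 1 call, Nlrp3 in lung CD11b+ minus liver cells (adjusted p = 0.0696).

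Signs turned under quantile normalization for Casp1 in BMDC (0.14), liver (-0.01) and lung CD103+ cells (0.02) and for Nlrp3 in liver (-0.28), and under median centring for Casp1 in lung CD103+ cells (0.02) and Nlrp3 in BMDC (-0.01). For Il1rap in BMDC they turned with array weights (0.08) and without the narrow arrays (0.2), as for Nlrp3 in liver (-0.12). Without 1 array in turn, log2 differences also turned sign over these ranges: Il1a -1.38 to 0.51 (liver), Il1b -1.4 to 0.46 (liver), -0.47 to 1.31 (lung CD103+), -0.43 to 0.03 (the mean), Il1r2 -0.58 to 2.48 (liver), -0.29 to 0.97 (lung CD103+), -0.14 to 0.63 (the mean), Il1rap -0.46 to 0.2 (BMDC), -0.27 to 0.05 (lung CD11b+), -0.21 to 0.32 (lung CD103+). The same held for Il18 -1.11 to 0.51 (liver), -0.31 to 0.67 (lung CD103+), Il18bp -0.06 to 0.89 (lung CD11b+), -0.13 to 0.22 (lung CD103+), -0.03 to 0.21 (the mean), Casp1 -0.09 to 0.82 (liver), -0.26 to 0.2 (lung CD103+), -0.03 to 0.2 (the mean), Nlrp3 -0.12 to 0.34 (BMDC), -0.21 to 0.38 (liver), -0.51 to 0.06 (lung CD11b+).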
